A study of Glycine max with 23 samples.

Results

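Transcripts of 4 soyasaponin synthesis genes, CYP93E1, CYP72A67, SGT2 and SGT3, were followed across 10 groups of soybean (Glycine max) samples. Members were found by these symbols in the probe annotation, and the genes were represented by 9 of the 37593 soybean probe sets on the array (4 for CYP93E1, 2 for CYP72A67, 2 for SGT2 and 1 for SGT3), or 4 of the 6031 genes that had a probe set of their own. Their NCBI gene IDs are 100037459 for CYP93E1, 100801959 for CYP72A67, 100777250 for SGT2 and 100793463 for SGT3. Probe sets of a gene are called the brightest, the second, the third and the fourth by mean log2 signal over all arrays. By their brightest probe sets, all 4 genes had their highest mean among the captured seed compartments in the outer integument, a seed coat layer captured apart from the epidermis. All 4 were also high in leaf. CYP93E1 was high in the embryo proper as well.

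Seeds with heart-stage embryos, from pods of 1.3 to 2.0 cm on plants of cv. Asgrow A3237, were fixed, embedded in paraffin, sectioned and laser-captured. Capture gave 5 seed coat regions, namely outer integument, endothelium, epidermis, hilum and inner integument (2 arrays each), and 3 filial regions, namely endosperm, embryo proper and suspensor (3 arrays each). Ground whole seeds of the same stage and ground young trifoliate leaves of 1.5 to 2.5 cm added 2 arrays each, so that 23 Affymetrix Soybean Genome Arrays were compared. The labels name no transgene or treatment, all groups shared the cultivar and the growth conditions (22 °C, 16 h of light), and the captured and ground samples differed in the reagent used to extract RNA. Endosperm replicate 3 was captured with another microscope model. The labels call the replicates biological without tying them to plants, so the p-values reflect the spread among these arrays alone, which may be partly technical. A captured region is a bulk sample, in which fewer cells of a type and less RNA per cell cannot be told apart.

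Soyasaponins are bitter, soap-like triterpenoid glycosides of legumes. Their skeleton, beta-amyrin, is folded from the sterol precursor oxidosqualene, oxidised by cytochrome P450 enzymes to sapogenols, and then decorated with a chain of sugars by glycosyltransferases. CYP93E1 is the P450 that hydroxylates beta-amyrin and sophoradiol on the way to soyasapogenol B. CYP72A67 belongs to a P450 family with several triterpenoid oxidases, and in the legume Medicago truncatula the enzyme of that name oxidises oleanane-type triterpenes. SGT2 transfers galactose to the monoglucuronide of soyasapogenol B, and SGT3 (also UGT91H4) adds the terminal rhamnose that yields soyasaponin I.

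Values are array signals on a linear scale, with 1 common scale for all arrays, and the number of arrays limits their precision. A probe set was above background on an array when its signal passed the 95th percentile of the probe sets for 2 soybean pathogens there, a level of 86.3 to 231.4 on 21 arrays, 420.1 on suspensor replicate 1 and 404.9 on endosperm replicate 1. Of the 37593 soybean probe sets, 13378 to 23564 were above it per array. As a check of the labels, the embryo transcription factor genes LEC1-A and WRI1B were below background on all outer integument arrays (summed signal 143 to 230) and above it on all embryo proper arrays (5445 to 6915). Their sums were 10970 to 14650 in the suspensor and 3091 to 4420 in the endosperm, so they did not single out the embryo proper. The coat list of the MADS-box genes SEP1, AGL1L and MADS28 and the peroxidase gene PRX2 was above background throughout all 5 coat regions, with a summed signal of 63160 to 64140 in the outer integument, and SEP1, AGL1L and MADS28 were below it on all embryo proper arrays. In the suspensor AGL1L (649 to 2943) was above background on all 3 arrays, MADS28 on 2 and SEP1 on 1, so coat markers were partly present there. PRX2 (3928 to 7342 in the suspensor) was above background throughout all 10 groups. It had 1564 to 2099 in the embryo proper and 4681 to 5176 in leaf, so its presence did not single out the coat. ANR1, a proanthocyanidin gene meant to mark the endothelium, was higher in the hilum (12850 to 19440) than in the endothelium (517 to 6692), so it did not single out that layer.

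CYP93E1 was measured first by its brightest probe set. In the coat it had 5262 and 3760 in the outer integument, against 217 and 106 in the endothelium, 553 and 1593 in the epidermis, 77.1 and 138 in the hilum, and 1219 and 487 in the inner integument. In the filial regions it had 164, 151 and 454 in the endosperm, 5321, 3236 and 1546 in the embryo proper, and 111, 48.2 and 151 in the suspensor. The outer integument and embryo proper ranges overlapped, and both lay above the other captured arrays except epidermis replicate 2, which passed the lowest embryo proper array. All suspensor arrays, 2 of 3 endosperm arrays and 1 array each of endothelium and hilum were below background. Whole seed had 10851 and 10887, and leaf had 30464 and 25857.

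CYP72A67, by its brightest probe set, stood out in the outer integument from the rest of the seed. It had 17674 and 16784 in the outer integument, against 193 and 267 in the endothelium, 653 and 391 in the epidermis, 355 and 359 in the hilum, and 986 and 194 in the inner integument. The embryo proper was next among the captured regions with 2123, 1210 and 2533, while the endosperm had 317, 67.2 and 182 and the suspensor 33, 73.3 and 73.7. Both outer integument arrays stood above all 17 other captured arrays, and the suspensor was below background throughout. In whole seed CYP72A67 had 8942 and 10090, and in leaf 20107 and 19064, the 2 leaf arrays lying just above the 2 outer integument arrays.

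SGT2, the galactosyltransferase gene, was measured first by a probe set whose identifier ends in _s_at, a suffix for probes that can match more than 1 transcript, so near-identical relatives could add to its signal. The second and the fourth CYP93E1 probe sets carry the same suffix. Its signals were 12617 and 9947 in the outer integument, against 287 and 256 in the endothelium, 379 and 325 in the epidermis, 114 and 20.9 in the hilum, and 599 and 71.6 in the inner integument. The endosperm had 1015, 915 and 541, close to the embryo proper with 891, 1299 and 756, and the suspensor had 611, 132 and 303. The outer integument again stood clear of all other captured arrays, and the hilum was the region where SGT2 was below background on both arrays. Whole seed had 6353 and 6471, and leaf had 17535 and 16097.

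SGT3, the rhamnosyltransferase gene, has 1 probe set. In the coat it had 16489 and 13577 in the outer integument, against 337 and 271 in the endothelium, 698 and 911 in the epidermis, 248 and 218 in the hilum, and 1833 and 275 in the inner integument. The filial regions had 358, 519 and 598 in the endosperm, 2100, 1161 and 1853 in the embryo proper, and 563, 184 and 227 in the suspensor. Among captured regions only the outer integument lay above all embryo proper arrays, and inner integument replicate 1 fell within their range. Whole seed had 6156 and 4939, and leaf had 15161 and 12583, so that for SGT3, unlike the brightest probe sets of the other 3 genes, the leaf and outer integument ranges overlapped.

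**Figure D1:**
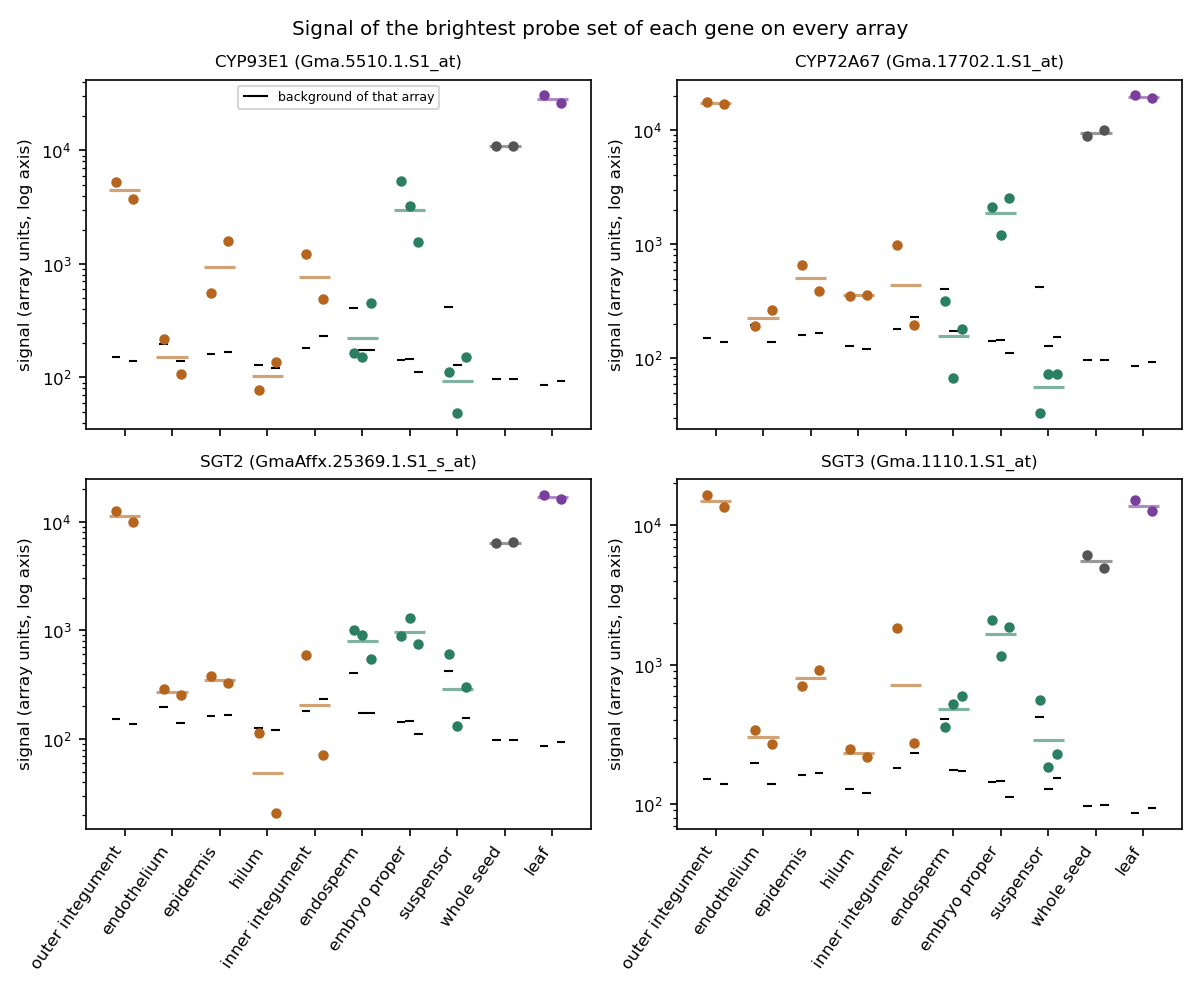
Signal (log axis, array units) of the brightest probe set of each gene, with 1 point per array, a coloured bar at the mean of the log values of each group and a short black bar at the background of that array. The outer integument points lie above all other captured arrays for CYP72A67, SGT2 and SGT3, and level with the embryo proper for CYP93E1.

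Ordered by mean log2 level, the brightest probe sets ran from leaf or the outer integument down to the suspensor (CYP93E1 and CYP72A67) or the hilum (SGT2 and SGT3). For CYP72A67 and SGT2 the first 4 places were leaf, outer integument, whole seed and embryo proper, with no overlap between neighbours. SGT3 had the outer integument first and leaf next, with overlap, followed by whole seed and the embryo proper. For CYP93E1 the order was leaf, whole seed, outer integument and embryo proper, and the last pair overlapped. Below the embryo proper most neighbours overlapped, so the order of the dim regions is not resolved by these arrays.

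The first question was whether transcript levels differ among the 8 captured compartments at all. They did for 6 of the 9 probe sets, which covered all 4 genes, by limma's moderated F-test (adjusted p = 1.3e-07 for CYP93E1, 9.8e-09 for CYP72A67, 1.2e-06 for SGT2 and 3.5e-07 for SGT3, brightest probe sets). Among all 25686 tested probe sets 52.8% passed the same test. The other 3 probe sets, dim ones of CYP93E1 and CYP72A67, did not pass (adjusted p = 0.79, 0.59 and 0.23).

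Differences were called in limma's fit where the Benjamini-Hochberg adjusted p fell below 0.05 and the fold reached 2. First the outer integument was set against the other 4 coat regions, taken as their mean. Of the 9 probe sets 6 were higher there and none lower, with all 4 genes among them, against 7.01% of all tested probe sets called in either direction. The median log2 difference was 3.67 over the 9 probe sets and 5.25 over the 4 brightest, against 0.03 over all tested. SGT2 was 55.3-fold higher (log2 difference 5.79 ± 0.56 SE, adjusted p = 6.5e-07), CYP72A67 44.9-fold (5.49 ± 0.49, adjusted p = 2.3e-07), SGT3 32.1-fold (5.01 ± 0.48, adjusted p = 5.1e-07) and CYP93E1 12.7-fold (3.67 ± 0.51, adjusted p = 4.7e-05). On the 8 arrays of the other regions, SGT3 was above background on 8, CYP93E1 and CYP72A67 on 6 and SGT2 on 5, so folds of the last 3 are set against levels partly below background. The second SGT2 probe set was 31.3-fold higher and the second CYP93E1 probe set 10.2-fold higher (adjusted p = 8.8e-07 and 0.00084).

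A stricter test set the outer integument against each of the other 7 captured compartments, and asked for at least 2-fold and an adjusted p under 0.05 in all 7. CYP72A67, both SGT2 probe sets and SGT3 passed it, 4 of 9 member probe sets, against 0.417% of all tested probe sets. The nearest compartment was the embryo proper for the brightest probe sets of these genes, with the outer integument 9.15-fold higher for CYP72A67 (3.19 ± 0.57, adjusted p = 0.00032), 11.5-fold for SGT2 (3.53 ± 0.65, adjusted p = 0.00048) and 8.97-fold for SGT3 (3.17 ± 0.55, adjusted p = 0.00025). CYP72A67 was at least 78.1-fold higher than in the suspensor, SGT2 at least 80.2-fold higher than in the hilum, and SGT3 60.3-fold higher than in the hilum. These 4 calls were also made with each captured array left out in turn and under the other settings tried. Counting arrays alone, 5 of 9 probe sets had both outer integument arrays above every other captured array, against 3.11% of all tested.

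**Figure D2:**
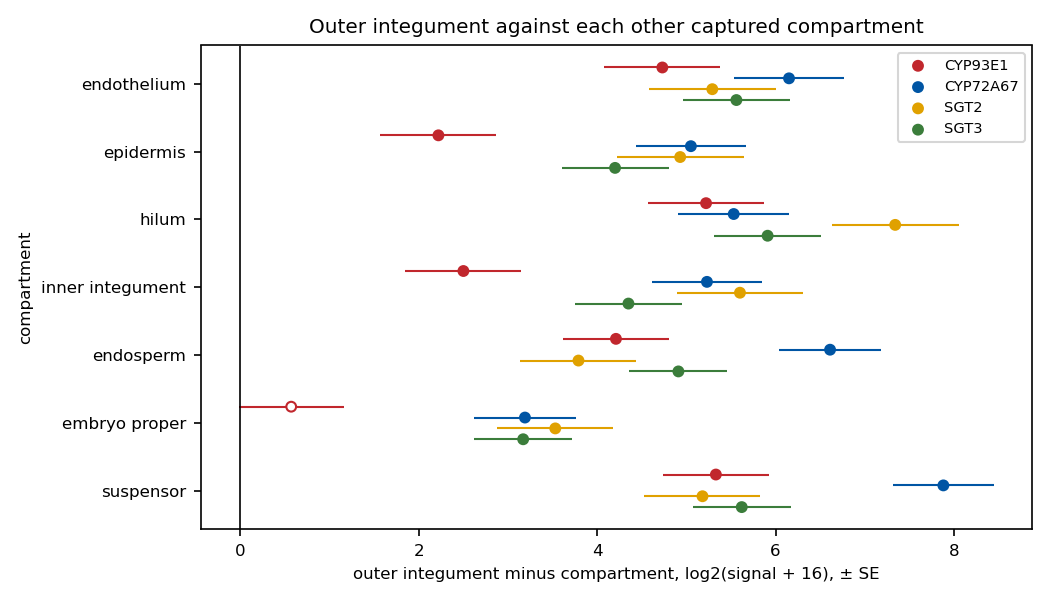
Difference in log2(signal + 16) between the outer integument and each of the other 7 captured compartments (x axis, ± SE from the limma fit) for the brightest probe set of each gene. Filled points were called and the open point, CYP93E1 against the embryo proper at 0.57, was not.

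By the brightest probe sets, CYP93E1 was the gene whose outer integument and embryo proper arrays overlapped. By its second probe set both outer integument arrays (1354 and 1399) lay above the embryo proper arrays (547 to 1001). CYP93E1 was called higher in the outer integument in 6 of the 7 pairs. Against the embryo proper it was not called, with a difference of 0.57 ± 0.59 on the log2 scale (adjusted p = 0.62), and its second probe set gave 0.77 ± 0.70 (adjusted p = 0.56). In these pairs CYP93E1 was 4.67-fold higher in the outer integument than in the epidermis (adjusted p = 0.049) and at least 20.2-fold higher than in the suspensor (adjusted p = 5.8e-07). Taken within each array, the log2 signal of CYP93E1 minus that of another member was higher in the embryo proper than in the outer integument by 2.62 for CYP72A67, 2.96 for SGT2 and 2.59 for SGT3, and in each case all 3 embryo proper arrays lay above both outer integument arrays. The difference was examined after the levels were known, and 3 against 2 arrays allow no p under 0.1 in a 2-sided exact permutation test, which gave 0.2, 0.1 and 0.2 (adjusted over the 3 pairs, 0.2 each).

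Hilum and endothelium were the coat regions where members were called lower than in the mean of the other 4, a mean that the high outer integument raises. In the hilum 4 of 9 probe sets were lower and none higher, against 9.09% of all tested. SGT2 was at least 5.17-fold lower (−3.39 ± 0.56, adjusted p = 0.00033), CYP93E1 7.25-fold (−2.86 ± 0.51, adjusted p = 0.00069) and SGT3 5.22-fold (−2.39 ± 0.48, adjusted p = 0.002). The second SGT2 probe set was at least 2.28-fold lower there (adjusted p = 0.025), a call lost without hilum replicate 1 (0.302) or 2 (0.141). In the endothelium 3 of 9 were lower, CYP93E1 by 4.72-fold, CYP72A67 by 4.58-fold and SGT3 by 3.84-fold (adjusted p = 0.0074, 0.0063 and 0.013), against 6.53% of all tested. With 1 endothelium array left out, calls were lost for CYP93E1 (without replicate 2, adjusted p = 0.156), CYP72A67 (without replicate 1, 0.189) and SGT3 (without either, 0.131 and 0.129). In the hilum the same happened for CYP93E1 without replicate 1 (0.0522) and for SGT2 (0.0621) and SGT3 (0.0596) without replicate 2.

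No member probe set was called in the epidermis (7.88% of all tested were) or the inner integument (18.8%). The 2 inner integument arrays differed widely for these genes, replicate 1 being higher in 8 of the 9 probe sets, by 2.67 on the log2 scale for SGT3, 2.81 for SGT2, 2.25 for CYP72A67 and 1.30 for CYP93E1. Of the 103 other probe sets that stood above all 7 compartments in the outer integument, 70 were also higher on inner integument replicate 1, with a median of 0.63. Over all 25686 tested probe sets, 13060 were higher on replicate 1, with a median of 0.02. The part of this in the results was not tested. Without inner integument replicate 1, the inner integument estimates were −2.18 for CYP72A67, −2.61 for SGT2 and −1.77 for SGT3. Without replicate 2 they were 0.08, 0.20 and 0.90.

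Within the young seed's filial tissues, the embryo proper was set against the suspensor, the stalk that joins it to the maternal tissue. All 4 genes were higher in the embryo proper, 6 of 9 probe sets with none lower, against 23.1% of all tested. The coat list summed to 1742 to 2228 in the embryo proper, against 4976 to 11200 in the suspensor, and its part in this comparison was not tested. CYP93E1 was at least 13.6-fold higher (4.76 ± 0.53, adjusted p = 8.3e-07), CYP72A67 at least 8.53-fold (4.69 ± 0.51, adjusted p = 6.2e-07) and SGT3 5.49-fold (2.46 ± 0.49, adjusted p = 0.00071), with no overlap of the arrays. SGT2 was 3.15-fold higher (1.65 ± 0.58, adjusted p = 0.041), a call lost without embryo proper replicate 1 (0.0831), 2 (0.144) or 3 (0.0577) and without suspensor replicate 2 (0.188) or 3 (0.0727). Its second probe set (1.60 ± 0.52, adjusted p = 0.027) lost the call without embryo proper replicate 2 (0.133) or suspensor replicate 1 (0.125), and with signals floored at the background (0.57 on the log2 scale, adjusted p = 0.282).

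Set against the embryo proper, the endosperm was lower for both P450 genes and SGT3, and SGT2 was not called. In all 4 of 9 probe sets were lower and none higher, against 18.9% of all tested. CYP93E1 was 12.4-fold lower in the endosperm (−3.63 ± 0.53, adjusted p = 2.4e-05), CYP72A67 10.7-fold (−3.42 ± 0.51, adjusted p = 3.2e-05) and SGT3 3.36-fold (−1.75 ± 0.49, adjusted p = 0.013), the last lost without embryo proper replicate 1 (0.063) or endosperm replicate 1 (0.0576). In the endosperm CYP93E1 and CYP72A67 were above background on 1 of 3 arrays. SGT2 had −0.26 (adjusted p = 0.80) by its brightest probe set and 0.26 (adjusted p = 0.77) by its second.

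Between endosperm and suspensor 1 of 9 probe sets was called, the second of SGT2, 3.62-fold higher in the endosperm (1.86 ± 0.52, adjusted p = 0.011), against 22.9% of all tested. It had 539, 442 and 300 in the endosperm, against 46.5, 103 and 211 in the suspensor, and these ranges did not overlap. The call was lost without suspensor replicate 1 (1.39, adjusted p = 0.0528) and with signals floored at the background (0.83, 0.144). The brightest SGT2 probe set had 1.39 (adjusted p = 0.086). It was called without that same array (1.90, 0.0228), with signals floored at the background (1.39, 0.0125) and with array weights (1.90, 0.0221). The coat list summed to 896.2 to 2356 in the endosperm, against 4976 to 11200 in the suspensor, and its part here was not tested either. CYP72A67 had 1.27 (adjusted p = 0.074), and was called without endosperm replicate 2 (1.81, 0.016).

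The coat regions were also averaged and set against the average of the 3 filial regions. Only CYP72A67 was called, 2.84-fold higher in the coat (1.50 ± 0.29, adjusted p = 0.00025), which makes 1 of 9 probe sets against 21.5% of all tested. Its coat and filial ranges overlapped, with the embryo proper arrays above all coat arrays outside the outer integument. The other genes were not called, with estimates of −0.47 for SGT2, 0.44 for CYP93E1 and 0.56 for SGT3 (adjusted p = 0.29, 0.28 and 0.12). With signals floored at the background the CYP72A67 difference fell under 2-fold (0.83, adjusted p = 0.00902).

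Whole seed was compared with leaf, both ground and extracted alike. The brightest probe sets had means 2.06-fold (CYP72A67) to 2.62-fold (SGT2) below leaf in whole seed, without overlap of the arrays, but these differences were not called (adjusted p = 0.18 to 0.34). The call went to 1 of 9, the fourth CYP93E1 probe set, at 122 and 249 in whole seed, against 1505 and 849 in leaf (−2.58 ± 0.78, adjusted p = 0.029), and 13.2% of all tested probe sets were called. It was lost without whole seed replicate 1 (0.24) or 2 (0.0679), or leaf replicate 1 (0.22) or 2 (0.0714). With array weights the brightest probe sets of all 4 genes were called lower in whole seed (adjusted p = 0.0104, 0.0238, 0.0124 and 0.00203 for CYP93E1, CYP72A67, SGT2 and SGT3). That setting called 7030 of the 25686 tested probe sets in either direction, against 3385 in the main fit. Both leaf arrays lay above every seed array for 6 of 9 probe sets, against 9.80% of all tested. The fourth CYP93E1 probe set is among these 6. It passed the background filter only through whole seed and leaf, so the filter favoured its place in this count.

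Some probe sets read higher in whole seed than in any region captured from it. For 4 of 9 probe sets, 3 of CYP93E1 and 1 of SGT2, both whole seed arrays lay above every captured array, against 2.63% of all tested. The fourth CYP93E1 probe set is among these. It passed the background filter only through whole seed and leaf, so the filter favoured its place in this count. CYP93E1 had 10851 and 10887 in whole seed by its brightest probe set, against a highest captured value of 5321 in the embryo proper. Its second probe set had 4611 and 5098 in whole seed, against at most 1399 in the outer integument. For CYP72A67, the brightest SGT2 probe set and SGT3 whole seed lay between the outer integument and the embryo proper. Ground and captured samples differ in fixation and extraction, whose part in these values was not tested.

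Leaf is rich in chloroplast transcripts, and these were set beside the members. The list of RCAALPHA, RCABETA, RCA11, RCA14 and ELIP, genes of Rubisco activase and of an early light-induced protein, had all 5 genes above background throughout leaf, with a summed signal of 79440 to 88520. In the outer integument all 5 were above background too, with a sum of 17150 to 17290. The sums were 18730 to 19220 in the endothelium, 19940 to 20930 in the epidermis, 5018 to 8172 in the hilum and 33920 to 36740 in the inner integument. ELIP and RCA14 made up much of the endothelium sum, averaging 8702 and 7890 there, against 1499 and 8673 in the outer integument. The 4 genes other than ELIP averaged higher in the outer integument than in the endothelium. In the epidermis RCABETA (3100 against 1702) and ELIP (5612 against 1499) were higher than in the outer integument, and RCAALPHA, RCA11 and RCA14 were lower. In the embryo proper RCA14 (13050 against 8673), ELIP (11090 against 1499) and RCAALPHA were higher than in the outer integument, and RCABETA and RCA11 were lower. Among filial regions the sums were 700.6 to 1529 in the endosperm, 20200 to 35030 in the embryo proper and 6004 to 7779 in the suspensor. The part of chloroplast transcripts in the members' values was not tested.

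The remaining 5 probe sets did not all follow the brightest ones. The second CYP93E1 probe set had 1354 and 1399 in the outer integument, 1001, 925 and 547 in the embryo proper, and 18428 and 15409 in leaf, a pattern like that of the brightest probe set. The second SGT2 probe set likewise had 4360 and 3478 in the outer integument, and at most 539 elsewhere among captured arrays. The fourth CYP93E1 probe set was below background on all captured arrays. The third CYP93E1 probe set stayed between 9.7 and 215 on all arrays, was above background throughout endothelium and whole seed alone, and was highest in the endothelium among captured compartments. The second CYP72A67 probe set reached 181 and 214 in the outer integument and 280 and 157 in leaf, the only groups where it was above background throughout.

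**Figure D3:**
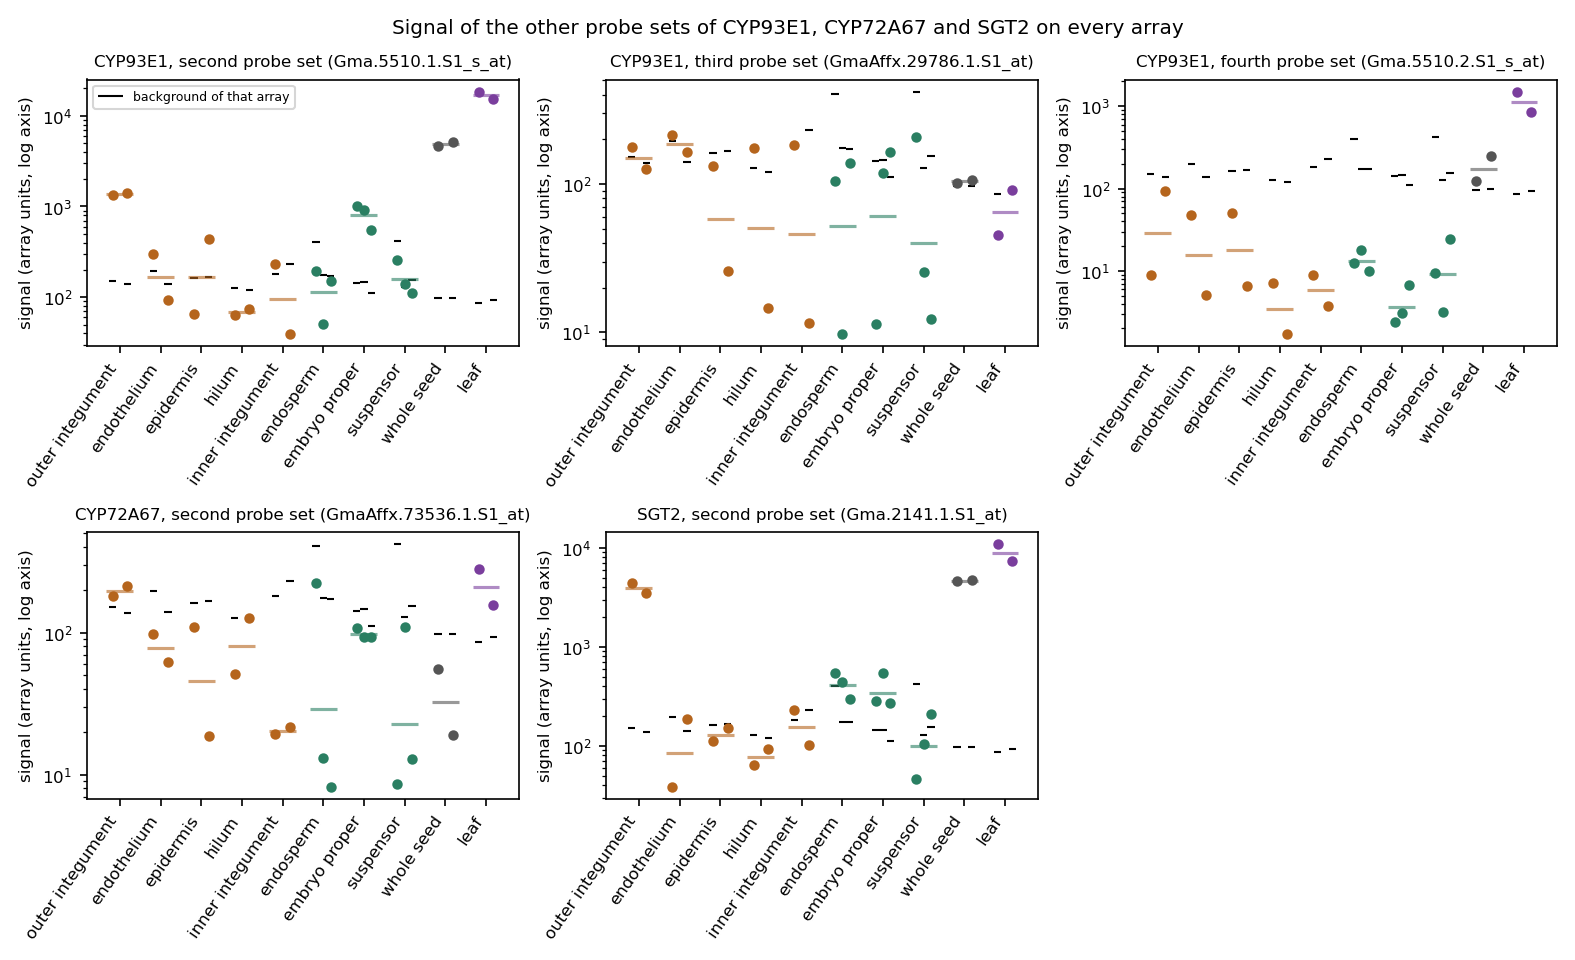
Signal (log axis, array units) of the 5 other probe sets, with 1 point per array, a coloured bar at the mean of the log values of each group and a short black bar at the background of that array. The second probe sets of CYP93E1 and SGT2 are high in the outer integument, whole seed and leaf, while the other 3 lie near or below background in most seed regions.

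The brightest probe sets of the 4 genes ran closely together over the groups. Pearson's r between pairs was 0.876 to 0.964 over the 10 group means on the log2 scale and 0.747 to 0.940 over the 8 captured compartments (6 pairs), points that share arrays and scaling. Among tested probe sets of other genes with an informative symbol, SGT3 was among the 3 most like CYP93E1 (r = 0.939 over the 10 groups), CYP72A67 (0.964) and SGT2 (0.952), and CYP72A67 was among the 3 most like SGT3. DRR1 was among the 3 most like CYP72A67 (0.966), SGT2 (0.948) and SGT3 (0.969), SPCP1 among those of SGT3 (0.971) and CYP72A67 (0.958), and SEO-F3 among those of CYP93E1 (0.940) and SGT2 (0.933). For CYP93E1 the gene listed as GH came first (0.945). Ranked over the 23 arrays instead, SGT3 came first for CYP93E1 (0.918) and GH was at place 3, while SEO-F3 was at place 18 for CYP93E1 and 11 for SGT2. SPCP1 was then at place 14 for CYP72A67 and 7 for SGT3. Over the 23 arrays SGT3 was first for SGT2 (0.929), and DRR1 was first for CYP72A67 (0.937), ahead of SGT3 (0.933). For SGT3 itself LOX7 was first (0.941), ahead of CYP72A67 (0.933) and SGT2 (0.929).

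Other genes of the triterpenoid and sterol route were few under their symbols. The symbol list found 1 gene, SMT2-2, a sterol methyltransferase gene of the competing sterol branch, and RefSeq synonyms added GT4 (synonym GmSg-1, the Sg-1 locus that adds the terminal sugar of group A saponins) and LOC732565, which shares the synonym SGT3 without being that gene. Against the mean of the other 4 coat regions, 1 of these 3 genes was higher in the outer integument and none lower, where 7.01% of all tested probe sets were called. GT4, by 1 of its 3 probe sets, had 1167 and 1052 in the outer integument, against 93.6, 38.1, 153, 121, 484, 399, 11.5 and 149 on the 8 arrays of the other regions (3.03 ± 0.69, adjusted p = 0.0069). It had 539, 485 and 570 in the embryo proper, against 202, 10.9 and 7.6 in the suspensor, at least 2.47-fold higher (adjusted p = 0.0011). In that comparison 1 of the 3 genes was higher and none lower, and 23.1% of all tested probe sets were called. Whole seed had 1221 and 1414 of GT4, and leaf 4983 and 2352. This GT4 probe set was also called lower in the inner integument than in the other coat regions (−2.05 ± 0.69, adjusted p = 0.039). Both inner integument arrays were below background, and the difference was at least 1.26-fold. The same probe set was called higher in the endosperm than in the suspensor (1.96 ± 0.71, adjusted p just under 0.05), with all arrays of both below background. The other 2 GT4 probe sets were not above background throughout any group.

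SMT2-2 was above background throughout all 10 groups, with 18060 and 22160 in the outer integument, against 3500 to 22717 in the other coat regions (0.96, adjusted p = 0.075). It was called higher in the hilum (2.03-fold, adjusted p = 0.044) and lower in the inner integument (2.69-fold, adjusted p = 0.0023). LOC732565, by its brighter probe set, was higher in the inner integument (14.0-fold, adjusted p = 2.6e-05) and the endothelium (5.42-fold, adjusted p = 0.0062), each against the mean of the other 4 coat regions. It was lower in the hilum (30.2-fold, adjusted p = 3e-06) and the epidermis (3.76-fold, adjusted p = 0.03). It was also lower in whole seed, with 1421 and 1181, against 17068 and 14150 in leaf (11.9-fold, adjusted p = 0.00099). With the coat regions averaged and set against the filial regions, it was at least 6.64-fold higher in the coat (4.97 ± 0.32, adjusted p = 7.1e-11).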

How the data were processed

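Each array came as deposited intensities, a linear signal for every probe set. The submitters' processing notes name GCOS 1.3, and the sources used here do not state how probes were summarised. With 2% trimmed at either end, the mean over the 61170 probe sets lay between 500.05 and 500.07 on all arrays, so signals were not scaled again. Levels are thus shares of each array's overall signal.

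The 23350 probe sets for Phytophthora sojae and Heterodera glycines gave the background, an upper estimate since they may cross-react. Of 37593 soybean probe sets, 25686 were tested, those above background on all arrays of some group. All 9 member probe sets passed, 3 of them through 2 groups each. Signals were analysed as log2(signal + 16), so folds understate changes of dim genes. A linear model of 10 group means on 23 arrays was fitted with limma 3.58.1 in R 4.3.3 (lmFit, eBayes with a trend, 13 residual degrees of freedom) and tested on simulated data. Contrasts were 2-sided with Benjamini-Hochberg adjustment over all tested probe sets, and a call needed a 2-fold difference as well as an adjusted p below 0.05. "At least" folds set the brighter mean against the background, or the probe set's own higher signal, where all dimmer arrays were below background.

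The platform annotation named 8677 soybean probe sets with 1 gene, 370 with several and 28546 with none, and 6010 of 6031 genes were found in the RefSeq table of Glycine_max_v4.0, used for names only. Each gene was described first by its probe set with the highest mean log2 signal, then by all others, and the 3 most similar probe sets were ranked by r over group means. SS, which fits the symbol list, was left out as a sucrose synthase gene. Members, lists and tests were chosen with earlier results of these data known. Single values were compared by exact permutation of arrays. Deviations from group means were compared for the 93 pairs of arrays with the same replicate number. They were correlated in few cases (r = −0.135 to 0.263, 7 over 0.1). These pairs are not all independent, since deviations mirror each other within the smallest groups. Low correlations cannot show that arrays with the same number share no plants or capture batch, so pairing was not decided. The main fit did not pair arrays. Alternatives changed the filter, background, offset, scaling, variance model, weights, arrays and replicate block.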

Additional observations from a re-analysis of the deposited data

How the results depend on the processing

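Array weights raised the counts of probe sets called over the whole array for the hilum (4289 against 2334), the outer integument (3266 against 1801) and whole seed against leaf (7030 against 3385). With 1 array left out in turn, a lone array being assumed to vary like the other groups, these counts ranged from 531 to 1790 for the endothelium, 791 to 2186 for the epidermis, 824 to 2621 for the hilum, 2589 to 4815 for the inner integument, 643 to 1950 for the outer integument and 1674 to 2064 for whole seed against leaf. Over the settings run for each, 37 in all, the member results on variation among compartments and on the outer integument against all 7 other compartments jointly kept their side of the threshold, as did the outer integument against the other coat regions. Single pairs of compartments, such as CYP93E1 against the epidermis, were not rerun. Of the other member results, 6 changed sign when 1 array was left out, none of them a call. SGT2 in the endosperm against the embryo proper ranged from −0.43 to 0.01, and SGT3 in the epidermis from −0.58 to 0.09. In the inner integument CYP93E1 ranged from −0.11 to 1.19, CYP72A67 from −2.18 to 0.08, SGT2 from −2.61 to 0.20 and SGT3 from −1.77 to 0.90. The call of SGT2 in the embryo proper against the suspensor was lost with an offset of 1 (adjusted p = 0.0619), quantile normalization (0.0811), no trend (0.0634) and captured compartments only (0.0657). Its second probe set lost that call (0.113), and that in the endosperm against the suspensor (0.129), without the 2 arrays of highest background. In the hilum it was lost with equal medians (0.0565), quantile normalization (0.0678) and captured compartments only (0.052). CYP72A67 was called lower there with an offset of 64 (0.0317), a floor at the background (0.0207) or array weights (0.0028). The same held without the 2 arrays of highest background (0.0294). The replicate block changed no member call, the outer integument difference of CYP93E1 staying at 3.67, and 1875 probe sets were called for that region. Signals near background limit what these arrays resolve in the dim regions. Causes were not tested.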
